A study of Mus musculus with 22 samples.

Results

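The comparison described here is that of medullary epithelial cells (MECs) from the thymus of Aire-knockout mice treated with Topo and with DMSO. It holds the 3 arrays titled Aire KO Topo and the 3 titled Aire KO DMSO, 6 of the 22 arrays of the series, chosen by their titles. Arrays titled for both drugs together were not part of it. All 6 arrays were labelled Aire-/-, C57Bl/6, female and 6 weeks old, so knockout and age were shared by treated and vehicle mice, and by their labels the 3 KO Topo arrays differed from the 3 KO DMSO arrays by treatment alone. No batch is given. The labels do not spell Topo out. It is a common abbreviation of topotecan, an inhibitor of topoisomerase I, and Etopo is one of etoposide, which blocks type II topoisomerases; DMSO is the usual vehicle of both. Dose, route and length of treatment are not in the labels, nor is the number of mice behind an array. The p-values therefore cover the variation among these arrays only, and part of it may be technical. The other groups, set beside this comparison where stated, were KO EtopoTopo (2 arrays, 4 weeks), KO Etopo (2 arrays, 6 weeks) and wild type (WT) MECs given both drugs (3 arrays, 4 weeks), Topo (3 arrays, 6 weeks), Etopo (3 arrays, 2 at 6 weeks and 1 at 4 weeks) or DMSO (3 arrays, 2 at 6 weeks and 1 at 4 weeks).

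MECs carry out negative selection of T cells by displaying proteins of peripheral tissues, and many of the genes involved are induced by Aire, a transcriptional regulator that binds topoisomerases and other proteins of DNA breaks. Topoisomerase I relaxes supercoils ahead of and behind the moving RNA polymerase by cutting a single strand. Topotecan holds the enzyme on the cut DNA, which can stop replication forks and polymerases, and in neurons inhibition of topoisomerase I is known to lower long genes most. An Aire knockout shows what the drug changes where Aire cannot act.

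RNA of cells sorted for the absence of CD45, low Ly51 and high MHC class II was hybridised to Affymetrix whole-transcript arrays, and 19752 genes were read from probes with 1 gene symbol. All values below are log2 of the deposited intensity, and differences are KO Topo minus KO DMSO on that scale unless another pair is named. The markers of mature MECs were high on all 6 arrays, with Epcam, an epithelial surface protein, at 10.48 to 10.81 and the MHC class II gene H2-Aa at 13.49 to 13.64. The Aire signal was not lower in the knockout, at 12.91 ± 0.04 in KO DMSO and 12.31 ± 0.11 in WT DMSO (SD, n = 3 each). The labels do not say which part of the gene was deleted, so this probe does not check the genotype. The mean of 52 listed Aire-dependent antigen genes was lower in the knockout, at 7.41 to 7.52 in KO DMSO and 9.45 to 9.68 in WT DMSO.

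A pair of arrays stood apart. KO DMSO 1 carried RNA of thymocytes, which the CD45 gate should remove: Ptprc, the gene of CD45, was at 10.04 there against 7.48 and 7.55 in the other KO DMSO arrays, and Rag1, the recombinase of developing lymphocytes, at 9.23 against 7.20 and 6.87. KO Topo 1 also had more leukocyte RNA than its group, with Ptprc at 8.43 against 7.43 and 7.31 in KO Topo 2 and 3, Itgax, a dendritic cell integrin, at 7.35 against 6.54 and 6.43, and the mean of 20 macrophage and dendritic cell markers at 8.57 against 8.08 and 8.13. The same array had a narrow spread of intensities, 4.42 between the 10th and 90th percentile of probes, against 4.88 and 4.99 in KO Topo 2 and 3 and 4.92 to 5.01 in KO DMSO. Of the 65 named genes that were called, 33 stayed called without KO DMSO 1 and 14 without KO Topo 1, and the change of 1, Ube2c, moved by over 1.5 times. The part of the leukocyte RNA in the results was not tested beyond these values and those given for each list.

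Topo changed 204 of the 19752 genes in KO MECs, or 1.03%, by limma's test over all genes at an adjusted p (Benjamini-Hochberg) under 0.05. Of these, 154 fell (0.78% of all genes) and 50 rose (0.253%), and the 3 KO Topo arrays lay wholly below or above the 3 KO DMSO arrays at each of the 204. At least a 2-fold change was reached by 16 genes that fell and 9 that rose. The median change of all genes was 0.01. Genes of mitosis and DNA replication made up 25 of the 154 that fell, and genes of tuft-like cells and bitter taste receptors were the most frequent of the listed groups among those that rose. The count leans on the other 16 arrays for its estimate of the spread: a fit of these 6 arrays alone called 0 genes, with 1618 at an unadjusted p under 0.05. With the replicate number as a block the count was also 0 (2599 at an unadjusted p under 0.05, smallest adjusted p = 0.0701 by limma). Leaving out KO DMSO 3 left 1 gene, leaving out KO Topo 1 left 60 and leaving out KO Topo 3 left 118. All 204 genes kept their direction in each of these 5 fits, but this was fixed in advance. Both fits of the 6 arrays alone give the same changes as the main fit. Groups that do not overlap keep their order when an array is left out. After quantile normalization 112 genes fell and 84 rose, so that 57.1% of the calls were lower, against 75.5% as deposited.

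**Figure D1:**
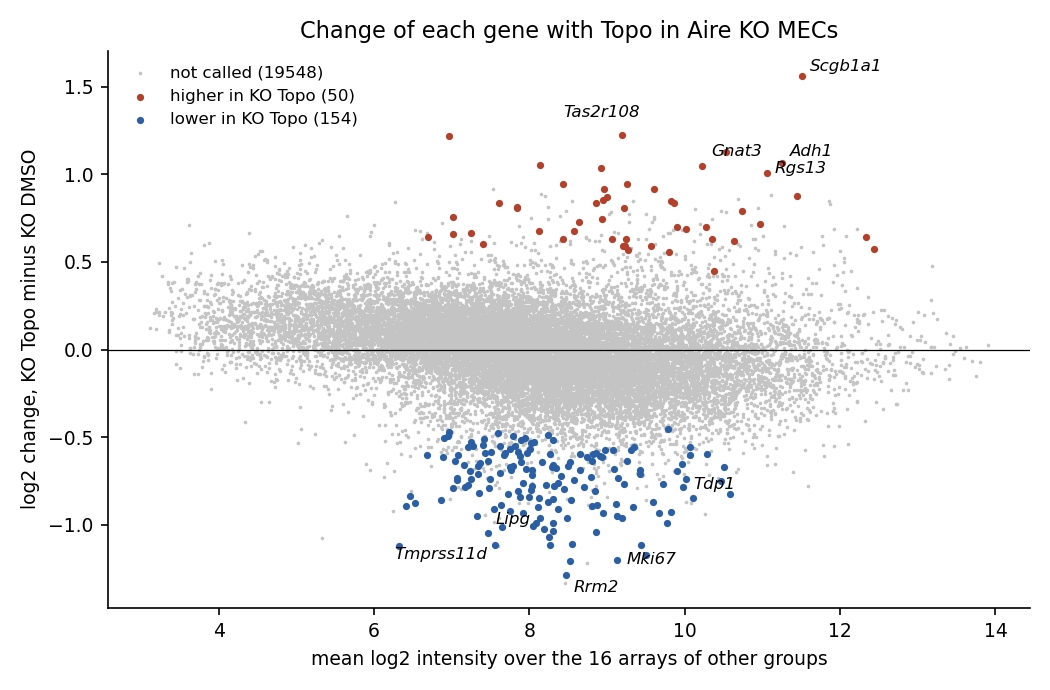
Each point is 1 of 19752 genes, with its mean log2 intensity over the 16 arrays of other groups on the horizontal axis and its log2 change, KO Topo minus KO DMSO, on the vertical axis; coloured points passed limma's test. The 154 genes that fell and the 50 that rose lie outside a grey cloud that tilts slightly, from above 0 for dim genes to below 0 for bright ones.

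The tilt of the whole cloud is measurable: in 5 bins of equal size by level, the median change was 0.12 in the dimmest genes, then 0.05, −0.02 and −0.08, and −0.08 in the brightest. Without KO Topo 1 the 5 medians lay between −0.02 and 0.04, and after quantile normalization between 0.00 and 0.01. Small shifts of large families of dim genes are therefore read against this tilt below. It is smaller than the change of every called gene, the smallest of which were near 0.45 in size.

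Of the proteins that carry a cell through mitosis, 34 were measured. All 34 had values below 0, and 31 had every KO Topo array below every KO DMSO array (8.79% of all genes did). By the test 19 fell and none rose (0.78% and 0.253% of all genes did), with a median change of −0.78. Mki67, the proliferation antigen Ki-67, was at 8.11, 8.57 and 8.74 in the 3 KO Topo arrays, against 10.10, 9.26 and 9.66 in the KO DMSO arrays (−1.20 ± 0.22 SE, adjusted p = 0.0131 by limma). Kif11, a kinesin that pushes spindle poles apart, was at 7.59, 7.82 and 8.01 in KO Topo, against 9.50, 8.60 and 8.93 in KO DMSO (−1.20 ± 0.24, adjusted p = 0.0169 by limma). KO Topo 1 was the lowest array for both genes, and the groups did not overlap.

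The kinase Cdk1 and its partners fell together. Cdk1, which drives entry into mitosis, was at 9.45, 9.37 and 9.36 in KO Topo, against 10.19, 10.24 and 10.44 in KO DMSO, with a small spread inside each group (−0.90 ± 0.17, adjusted p = 0.0134 by limma). Its activating cyclins Ccna2 (−1.17 ± 0.26) and Ccnb2 (−0.99 ± 0.22) fell as well. So did the spindle checkpoint kinases Bub1 (−1.01) and Bub1b (−1.01), the ubiquitin-conjugating enzyme Ube2c (−0.96, and −0.62 without KO Topo 1), which helps destroy cyclins at the end of mitosis, and the motors and spindle proteins Kif20a (−1.03), Kif23 (−0.84), Kif2c (−0.69), Nusap1 (−1.07), Tpx2 (−0.69) and Aspm (−0.85). Plk1, a kinase of mitotic entry, had a value of −1.22 but did not pass the test, nor did the Aurora kinases Aurka (−0.57) and Aurkb (−0.65).

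The 250 bases before the annotated start of 3 of these genes are given from RefSeq on GRCm38.p6, chosen because they hold both of the motifs named next, which most of the group do not. Cell cycle genes of this kind often carry CCAAT boxes, bound by the factor NF-Y, and the element TTTGAA, through which the DREAM and MuvB complexes act. Capitals mark CCAAT and TTTGAA on either strand (ATTGG and TTCAAA on the other). The sequences run 5′ to 3′ on the strand of the gene and end at the base before the start.
Cdk1 (chr10:69352913-69353162, minus strand): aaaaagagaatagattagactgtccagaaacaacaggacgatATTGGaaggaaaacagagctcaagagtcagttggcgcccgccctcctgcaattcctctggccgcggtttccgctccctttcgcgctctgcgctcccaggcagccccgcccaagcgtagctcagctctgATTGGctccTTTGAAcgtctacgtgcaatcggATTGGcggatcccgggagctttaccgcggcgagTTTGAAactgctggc
Kif11 (chr19:37376132-37376381, plus strand): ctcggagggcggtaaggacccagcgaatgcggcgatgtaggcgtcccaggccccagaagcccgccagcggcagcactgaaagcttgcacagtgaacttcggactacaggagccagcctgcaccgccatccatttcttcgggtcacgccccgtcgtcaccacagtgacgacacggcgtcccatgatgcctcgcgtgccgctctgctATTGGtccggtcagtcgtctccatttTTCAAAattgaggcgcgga
Ccnb2 (chr9:70421555-70421804, minus strand): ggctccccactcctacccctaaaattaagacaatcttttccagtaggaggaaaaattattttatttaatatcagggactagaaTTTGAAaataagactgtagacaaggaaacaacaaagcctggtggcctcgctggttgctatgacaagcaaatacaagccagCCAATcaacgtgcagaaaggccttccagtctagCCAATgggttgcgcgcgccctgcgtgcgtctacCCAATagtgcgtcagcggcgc
A sequence of this window was at hand for 16 of the 19 mitosis genes that fell. CCAAT was found in 13 of them (81.2%), TTTGAA in 7 (43.8%) and both in 6 (37.5%). Among all 27025 genes of the promoter table the shares were 34.5%, 16.3% and 5.7%. In the DNA replication genes that fell, CCAAT was in 4 and TTTGAA in 0 of 5, and TTTGAA was in 27.9% of the 43 windows of genes that rose. The motifs do not overlap each other, and a match describes the letters of the window only.

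Genes of DNA replication were lower with fewer calls. Of 41 measured, 40 had values below 0 and 29 lay wholly below KO DMSO (8.79% of all genes did). By the test 6 fell and none rose (0.78% and 0.253% of all genes did), with a median of −0.37. Rrm2, the inducible subunit of the enzyme that makes deoxynucleotides, had the lowest change of any called gene, at 7.36, 7.94 and 8.08 in KO Topo, against 9.28, 8.78 and 9.16 in KO DMSO (−1.28 ± 0.21, adjusted p = 0.00894 by limma). The helicase subunits Mcm3 (−0.82), Mcm6 (−0.69) and Mcm5 (−0.59), the primase subunit Prim2 (−0.66) and the transcription factor E2f1 (−0.64), which turns on genes of S phase, also fell. Of the called genes outside the lists, Dtl (−1.05), which marks replication proteins for destruction, and Pclaf (−1.04), a partner of the sliding clamp, belong to the same process. The clamp itself, Pcna (−0.12), and thymidine kinase, Tk1 (0.06), were near 0. The core histone genes, made in S phase, had a median of −0.09, with none of 22 called (1.03% of all genes were).

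Cycling thymocytes also express these genes, and KO DMSO 1 held thymocyte RNA, so the values without it are given. Without KO DMSO 1 the median of the mitosis list was −0.74, with 10 genes called, and that of DNA replication −0.38, with 2 called. Without KO Topo 1, the medians were −0.63 and −0.35, with 5 and 1 called. The means of the mitosis list per array were 7.40, 7.81 and 7.91 in KO Topo, against 8.51, 8.25 and 8.61 in KO DMSO. The highest of the 6 was KO DMSO 3, where the mean of the thymocyte markers was 7.34, against 8.72 in KO DMSO 1. The part of thymocyte RNA in these changes was not tested. In bulk RNA, fewer cycling cells and less of these transcripts in each cell cannot be told apart.

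**Figure D2:**
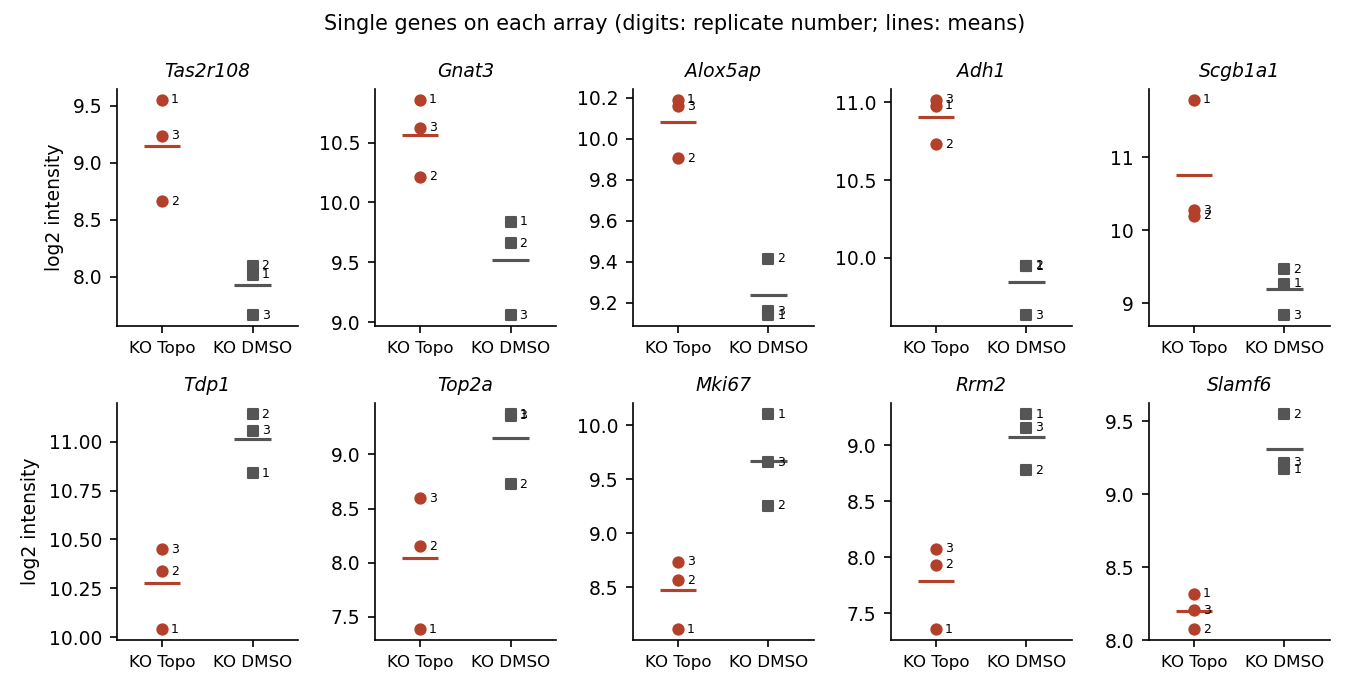
Log2 intensity of 10 genes on each of the 6 arrays, with the KO Topo arrays left of the KO DMSO arrays, group means as lines and the replicate number beside each point; each panel has its own axis, which does not start at 0. The upper 5 genes rose and the lower 5 fell, and in none of the panels do the groups overlap.

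Thymocyte markers were lower on average, by an amount that depended on KO DMSO 1 and KO Topo 1. Of 18 measured, 2 fell and none rose (0.78% and 0.253% of all genes did), with a median of −0.60. The median became −0.10 without KO DMSO 1 and −0.78 without KO Topo 1. The list means were 7.62, 7.17 and 7.17 in KO Topo, against 8.72, 7.59 and 7.34 in KO DMSO, and the groups overlapped. Thy1 departed from the list, and Cd4 followed it inside KO DMSO only. Thy1, a surface protein of thymocytes also found on fibroblasts, was at 8.94, 8.55 and 8.60 in KO Topo and level across KO DMSO at 9.59, 9.57 and 9.59 (−0.88 ± 0.16, adjusted p = 0.0131 by limma). Cd4, the coreceptor of helper T cells, was at 7.76, 8.01 and 8.07 in KO Topo, against 9.59, 8.88 and 8.44 in KO DMSO (−1.03 ± 0.24, adjusted p = 0.04 by limma). Inside KO DMSO it was in the order of the list means, highest in KO DMSO 1. Inside KO Topo it was not, being lowest in KO Topo 1, where the list mean was highest. Without KO DMSO 1 the value of Cd4 was −0.72 (adjusted p = 0.177 by limma). Slamf6, a receptor of lymphocytes, was at 8.32, 8.07 and 8.20 in KO Topo, against 9.17, 9.55 and 9.22 in KO DMSO (−1.11 ± 0.17, adjusted p = 0.00485 by limma), and KO DMSO 1 was the lowest of its group.

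Among the enzymes the drug bears on, Tdp1 fell. It removes the topoisomerase I peptide from the end of a broken strand, and so repairs the lesion that topotecan leaves. Tdp1 was at 10.04, 10.34 and 10.45 in KO Topo, against 10.84, 11.14 and 11.06 in KO DMSO (−0.74 ± 0.14, adjusted p = 0.0134 by limma). Top1, the target of topotecan, was at 9.30, 9.40 and 9.70 in KO Topo, against 9.26, 9.30 and 9.23 in KO DMSO (0.20 ± 0.16, adjusted p = 0.655 by limma), with overlapping groups. Of the type II enzymes, Top2a, which is made in dividing cells, fell (−1.11 ± 0.27, adjusted p = 0.0475 by limma), while Top2b, the form of resting cells, had a value of 0.06 (adjusted p = 0.927 by limma). The list of topoisomerases and enzymes that repair their cleavage complexes had 22 measured members and a median of −0.17 (−0.09 without KO Topo 1). It had no calls besides Top2a and Tdp1, where 1.03% of all genes were called. Parp1, a sensor of strand breaks, had a value of −0.49 (adjusted p = 0.104 by limma).

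Genes that p53 turns on after DNA damage were not raised as a group. Of 30 measured, none rose (0.253% of all genes did), 20 had values below 0 and the median was −0.05. Mdm2 (−0.04), Bbc3 (0.06), Fas (−0.05) and Ccng1 (−0.08), classical targets, were near 0, and Plk2 had the highest value, 0.64 (adjusted p = 0.334 by limma). The single call was a fall, of Tnfrsf10b, a death receptor, at 9.88, 10.20 and 10.11 in KO Topo, against 10.69, 10.63 and 10.84 in KO DMSO (−0.65 ± 0.15, adjusted p = 0.03 by limma). None of 32 genes of break signalling and repair was called (1.03% of all genes were), and 26 of them had values below 0 (median −0.17). Interferon, NF-kB and immediate early genes, 25, 24 and 31 measured, had no call either, and medians of 0.02, −0.01 and −0.05. In lists of this size, no call is near the share of all genes called. Hspb1, a small heat shock protein in the last of these lists, had a value of 0.69 (adjusted p = 0.061 by limma).

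The clearest rise was in genes of tuft-like cells, chemosensory epithelial cells that make leukotrienes and interleukin 25 and form a subset of the medulla. All 22 measured genes had values above 0, and 18 had no overlap between the groups (7.62% of all genes lay wholly above). By the test 6 rose and none fell (0.253% and 0.78% of all genes did), and the median was 0.54. Gnat3, the G protein subunit gustducin of taste signalling, was at 10.86, 10.21 and 10.62 in KO Topo, against 9.84, 9.66 and 9.06 in KO DMSO (1.05 ± 0.22, adjusted p = 0.0261 by limma). Alox5ap, which presents arachidonic acid for leukotriene synthesis, was at 10.19, 9.90 and 10.16 in KO Topo, against 9.14, 9.41 and 9.16 in KO DMSO (0.85 ± 0.14, adjusted p = 0.0103 by limma). No KO DMSO array reached the lowest KO Topo array for either gene.

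The other tuft genes called were Rgs13 (1.01 ± 0.19), a regulator of G protein signalling, the kinase Bmx (0.92 ± 0.21), Gng13 (0.69 ± 0.15), the partner subunit of gustducin, and Ptgds (0.45 ± 0.11), a prostaglandin D synthase. Members that did not pass had values of 0.74 for Trpm5, the cation channel of taste cells, 0.72 for Alox5, 0.57 for Pou2f3, the transcription factor that specifies tuft cells, and 0.47 for Il25. The list means per array were 9.69, 9.51 and 9.72 in KO Topo, against 9.07, 9.15 and 8.88 in KO DMSO. Without KO Topo 1 the median was 0.65 with 2 called, and without KO DMSO 1 it was 0.52 with 4 called.

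Bitter taste receptors, which tuft cells use to sense their surroundings, moved the same way, from lower signals. Of 34 measured, 33 had values above 0, 14 lay wholly above KO DMSO (7.62% of all genes did) and 3 rose (0.253% of all genes did), with a median of 0.37. Tas2r108 was at 9.55, 8.66 and 9.24 in KO Topo, against 8.02, 8.10 and 7.66 in KO DMSO (1.23 ± 0.23, adjusted p = 0.0134 by limma). Tas2r123 (1.22 ± 0.25) and Tas2r117 (1.05 ± 0.25, with 1.55 at its other probe) also rose. These receptors form a family of related sequences, so probes may share signal. KO Topo 1 was the highest array for all of these receptors, and the list mean was 6.77 there, 6.12 and 6.30 in KO Topo 2 and 3, against 6.04, 5.98 and 5.81 in KO DMSO. Without KO Topo 1 the median of the list was 0.22 and none was called. For scale, 1015 olfactory receptors, which are largely dim, had a median of 0.17 that became 0.04 without KO Topo 1, with 1 gene rising (Olfr214, 0.67) and 1 falling (Olfr284, −0.57).

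**Figure D3:**
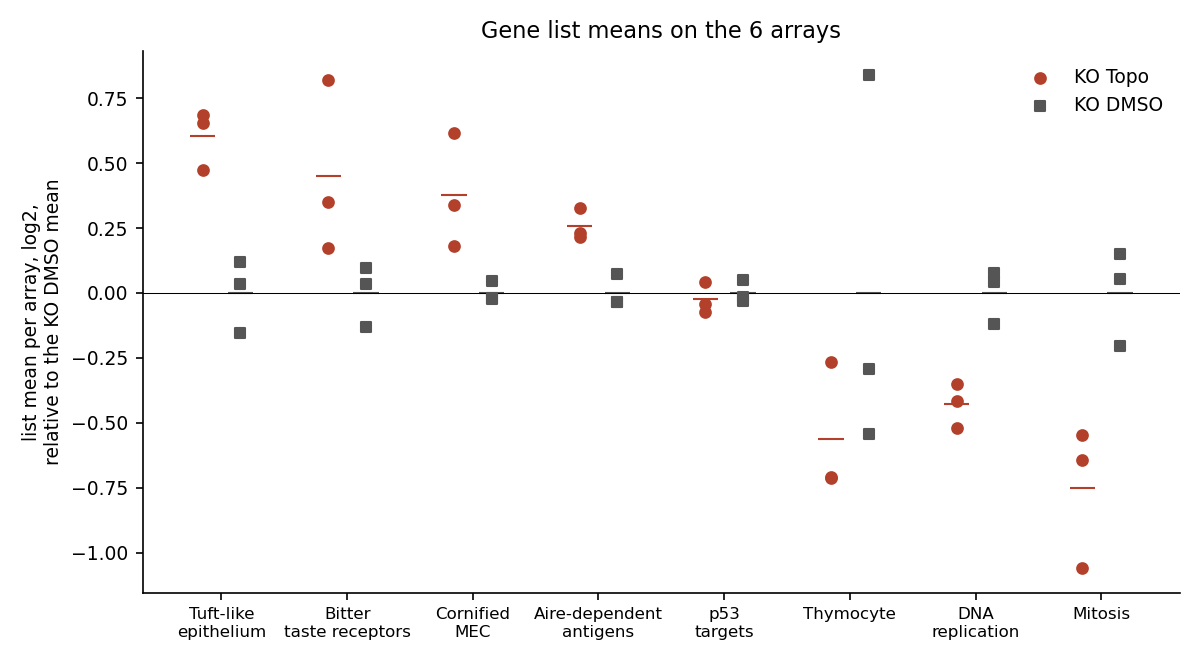
Mean log2 intensity of 8 gene lists on each array, relative to the KO DMSO mean of the list, with KO Topo left of KO DMSO and short lines at the group means. Tuft-like, taste receptor, cornified and Aire-dependent lists lie higher in all 3 KO Topo arrays, mitosis and DNA replication lower in all 3, and the groups overlap for p53 targets and for the thymocyte list, where KO DMSO 1 stands alone at the top.

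Cornified MECs are late cells that resemble the outer skin. Of 20 genes of this kind, 17 had values above 0 and 1 rose (0.253% of all genes did), with a median of 0.46. Wholly above KO DMSO lay 10 (7.62% of all genes did) and wholly below 2 (8.79% of all genes did). Sprr1a, a precursor of the cornified envelope, was at 12.62, 12.18 and 12.05 in KO Topo, against 11.84, 11.44 and 11.65 in KO DMSO (0.64 ± 0.15, adjusted p = 0.0336 by limma). Krtdap (0.86, adjusted p = 0.0609), Krt10 (0.71, adjusted p = 0.07) and Cdsn (0.48, adjusted p = 0.0732) did not pass limma's test, although none of the 3 had overlapping groups. Without KO Topo 1 the median was 0.26 and none was called.

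The genes that rose most were not confined to these lists. Scgb1a1, the uteroglobin of airway club cells, had the highest change, with 11.79, 10.20 and 10.27 in KO Topo, against 9.27, 9.47 and 8.84 in KO DMSO (1.56 ± 0.33, adjusted p = 0.0241 by limma), and KO Topo 1 stood well above the others. Without it the value was 1.04 (adjusted p = 0.122 by limma). Adh1, an alcohol dehydrogenase that also oxidises retinol, was steadier, at 10.98, 10.73 and 11.02 in KO Topo, against 9.95, 9.95 and 9.63 in KO DMSO (1.06 ± 0.15, adjusted p = 0.00485 by limma). Prap1, a protein of gut and uterine epithelium, rose by 1.13 ± 0.25, the protease inhibitor Spink12 by 1.04 ± 0.21, the sulfotransferase Sult1d1 by 0.94 ± 0.18 and Epgn, a ligand of the EGF receptor, by 0.94 ± 0.19. Fxyd3 (0.88), a regulator of the sodium pump, Tspan6 (0.92), a tetraspanin, and Kcnj13 (0.87), a potassium channel, completed the named genes of this direction together with Ackr4 (0.68), a scavenger of chemokines, and the epoxygenases Cyp2j6 (0.63) and Cyp2j9 (0.84).

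Outside the cell cycle the genes that fell were of many kinds. Tmprss11d, an airway protease, was at 7.89, 7.73 and 7.73 in KO Topo, against 8.97, 8.75 and 8.97 in KO DMSO (−1.11 ± 0.18, adjusted p = 0.00746 by limma). Lipg, endothelial lipase, was chosen after its values were seen because its p was the lowest of all genes (−0.90 ± 0.11, adjusted p = 0.00113 by limma). Nudt10 (−1.12 ± 0.26), a phosphohydrolase, lay between 4.79 and 5.07 in KO Topo, and at 6.57, 6.08 and 5.36 in KO DMSO. Pcp4l1 (−1.11), Fgf21 (−0.87), a hormone of the fasting liver, and 3 serpins, Serpinb12 (−0.85), Serpinb10 (−0.82) and Serpinc1 (−0.63), the inhibitor antithrombin, fell as well, as did Kcng3 (−0.64), a modifier of voltage-gated potassium channels. Of the lists of other cell types, those of B cells, macrophages and dendritic cells, and neurons had no call (1.03% of all genes were called). Their medians were −0.10, 0.19 and 0.09, which became −0.08, −0.01 and 0.01 without KO Topo 1.

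Because topoisomerase I matters for long genes in neurons, the calls were also set against the length of the gene, a comparison added after the data were seen. A RefSeq span was matched to 19677 genes (99.6%). Genes that fell made up 0.275% of those under 10 kb, 0.90% of those of 10 to 30 kb, 1.08% of those of 30 to 100 kb, 1.31% of those of 100 to 300 kb and 1.71% of those over 300 kb. The share of genes that rose ran the other way, at 0.304%, 0.277%, 0.212%, 0.114% and 0. The genes that fell had a median span of 31.7 kb, against 17.9 kb for all genes and 13.1 kb for those that rose, and 20.8% of them were over 100 kb, against 11.6% of all genes. Without the mitosis and DNA replication lists, 129 genes remained and their median span was 34.3 kb.

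The 9 genes over 300 kb that fell included several known from the nervous system. They are named by their length and call, so after their values were seen. Pcdh15, a cadherin of hair cells that spans 1554 kb, was at 7.51, 7.93 and 7.71 in KO Topo, against 8.59, 8.41 and 8.66 in KO DMSO (−0.84 ± 0.15, adjusted p = 0.0131 by limma). Reln, the secreted guide of migrating neurons, was at 8.64, 8.84 and 8.94 in KO Topo, against 9.54, 9.52 and 9.39 in KO DMSO (−0.67 ± 0.11, adjusted p = 0.00973 by limma). Gabrg3 (−0.72), a subunit of the GABA receptor, Gria1 (−0.66), a glutamate receptor, Cpne4 (−0.81), Prkd1 (−0.88), Plce1 (−0.96), Slc4a4 (−0.52) and Gpc3 (−0.60) were the others.

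The bulk of long genes did not move with them. The median change was 0.07 under 10 kb, then −0.03, −0.04, −0.03 and −0.02 in the rising classes of span. Span and change correlated across genes with a Spearman coefficient of −0.23, and of −0.11 among genes above the median level, where genes are not independent and share the same 6 arrays. The trend was not particular to Topo. Against the same KO DMSO arrays the coefficients were −0.22 and −0.22 with Etopo, and −0.25 and −0.04 with both drugs. In WT MECs with Topo they were −0.10 and −0.03. Short genes were also dimmer, with a median level of 7.47 under 10 kb and 8.42 from 30 to 100 kb, and dim genes lay higher in the tilt given above. After quantile normalization the 5 medians ran from 0.04 in the shortest to −0.02 in the longest. In WT MECs, whose Topo and DMSO arrays are separate ones, the share of genes that fell was 1.20%, 1.45%, 1.49%, 1.36% and 1.90% in the classes from short to long. The share that rose in WT was 0.55%, 0.901%, 1.06%, 1.14% and 0.76%, an order unlike that in KO. Among KO genes above the median level, those that fell made up 0.506%, 0.952%, 0.882%, 1.39% and 1.28% of the 5 classes.

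**Figure D4:**
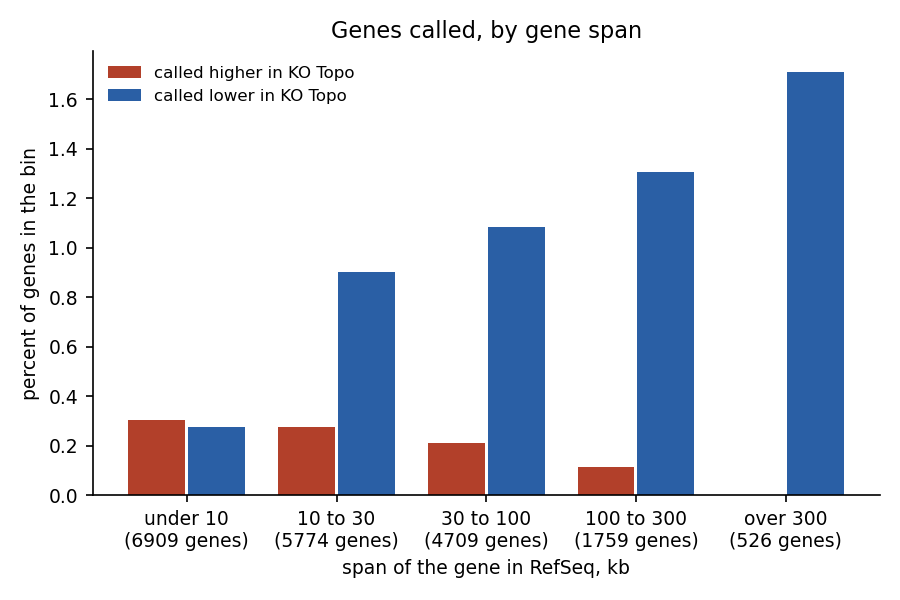
Percent of genes called higher (left bar of each pair) and lower (right bar) in KO Topo, in 5 classes of gene span in kb with the number of genes below each class. The share that fell is lowest under 10 kb, 0.275%, and highest over 300 kb, 1.71% of 526 genes, where none rose.

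Genes that depend on Aire give the comparison its contrast with wild type. Among 52 listed Aire-dependent antigens, 41 had values above 0 in KO MECs, none was called (1.03% of all genes were) and the median was 0.25. It was 0.22 after quantile normalization and 0.14 without KO Topo 1, where 2 genes rose. Per array, the list mean was 7.78, 7.68 and 7.67 in KO Topo, against 7.41, 7.52 and 7.41 in KO DMSO, with no overlap. In WT, the list mean was 9.18, 9.30 and 9.17 with Topo, against 9.68, 9.53 and 9.45 with DMSO, so that the list lay lower with Topo in WT and higher in KO. Its level in KO stayed far under that in WT under either treatment. The highest single values in KO were 0.83 for Hamp, the iron hormone hepcidin (adjusted p = 0.112), and 0.76 for Hamp2 (adjusted p = 0.111), neither past limma's test. Aire itself was at 11.78, 12.79 and 12.54 in KO Topo, against 12.89, 12.88 and 12.96 in KO DMSO (−0.54 ± 0.25, adjusted p = 0.393 by limma), low chiefly in KO Topo 1, without which its value was −0.24. None of 28 partners of Aire was called either (median −0.18, and −0.07 without KO Topo 1).

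A wider set of genes was chosen on arrays outside the comparison. Between KO Etopo and WT Etopo 12.6% of all genes were called, 8.07% lower and 4.5% higher, and 555 genes were called and at least 2-fold lower in KO Etopo. In KO MECs 383 of them (69.0%) lay above 0 with Topo, against 51.2% of all genes. Their median was 0.13, and 9 rose (1.62%) and 10 fell (1.80%), against 0.253% and 0.78% of all genes. These genes are dim in KO, with a median level of 7.23 in KO Etopo, and in the dimmer 2 of 5 bins of all genes by that level 81.1% and 65.2% lay above 0, with medians of 0.13 and 0.06. The set was therefore near other genes of its level as deposited. After quantile normalization its median was 0.09 with 62.3% above 0, against 51.6% and 54.0% in those bins, and without KO Topo 1 it was 0.07. Their median change in WT was −0.28. The 146 genes at least 2-fold higher in KO Etopo had a median of −0.12 in KO (−0.05 after quantile normalization), with 9 that fell (6.16%) and 1 that rose (0.685%).

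The test of the difference itself, the Topo effect in KO minus that in WT, passed for 15 genes (0.0759% of all), each with a more positive effect in KO. Of these 15, 14 fell in WT Topo by limma's test, 12 were at least 2-fold lower in KO Etopo than in WT Etopo, and 1, Car6, rose in KO. Car6, a carbonic anhydrase of saliva, was at 8.71, 9.16 and 8.66 in KO Topo, against 7.82, 8.49 and 7.98 in KO DMSO (0.74 ± 0.17, adjusted p = 0.0344 by limma). In WT it was at 8.88, 8.97 and 8.88 with Topo, against 9.51, 9.47 and 9.31 with DMSO, a value of −0.52 (adjusted p = 0.141 by limma). The 2 changes differed by 1.26 ± 0.24 (adjusted p = 0.0444 by limma for the interaction).

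None of the other 14 was called in KO. Nid1, the basement membrane protein nidogen, was at 7.40, 7.32 and 7.28 in KO Topo, against 7.29, 7.30 and 7.21 in KO DMSO, a value of 0.06. In WT it was at 8.26, 8.34 and 8.08 with Topo, against 9.79, 9.28 and 9.44 with DMSO, a change of −1.28 ± 0.13 (interaction 1.34 ± 0.18, adjusted p = 0.007 by limma). Cyp1a2, a cytochrome P450 of the liver, was between 5.75 and 6.40 on the 6 KO arrays and fell in WT (−1.09, interaction 1.42). Retnla (interaction 1.46), a secreted protein of macrophages, Psg27 (1.50), a pregnancy-specific glycoprotein, and Gsdmc2 (1.31), a gasdermin, showed the same order. In KO these 5 genes lay between 4.93 and 7.40 on all 6 arrays, and how far a low level in KO limits a fall was not tested. The count of 15 became 0 without WT Topo 3, 1 without KO DMSO 1, 3 without WT DMSO 1 or KO DMSO 3, 4 without WT DMSO 3 or WT Topo 1 and 5 without KO Topo 3.

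Topo changed 436 genes (2.21%) in WT MECs by the same test, and these were followed in KO. The WT and KO arrays are separate, although WT DMSO holds 1 array labelled 4 weeks. The 164 genes that rose in WT (0.83% of all) had a median of 0.39 in KO, with 159 above 0, 33 that rose and none that fell. The 272 that fell in WT (1.38% of all) had a median of −0.06 in KO, with 154 below 0 and 38 that fell. Of these, the 112 also at least 2-fold lower in KO Etopo than in WT Etopo had a median of 0.10 (0.03 after quantile normalization) and 1 that fell. The other 160 had a median of −0.30 (−0.24 after quantile normalization), with 116 below 0 and 37 that fell. Read from the KO side, 33 of the 50 genes that rose (66.0%) and 38 of the 154 that fell (24.7%) were called in the same direction in WT, which is 20.1% and 14.0% of the WT calls.

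**Figure D5:**
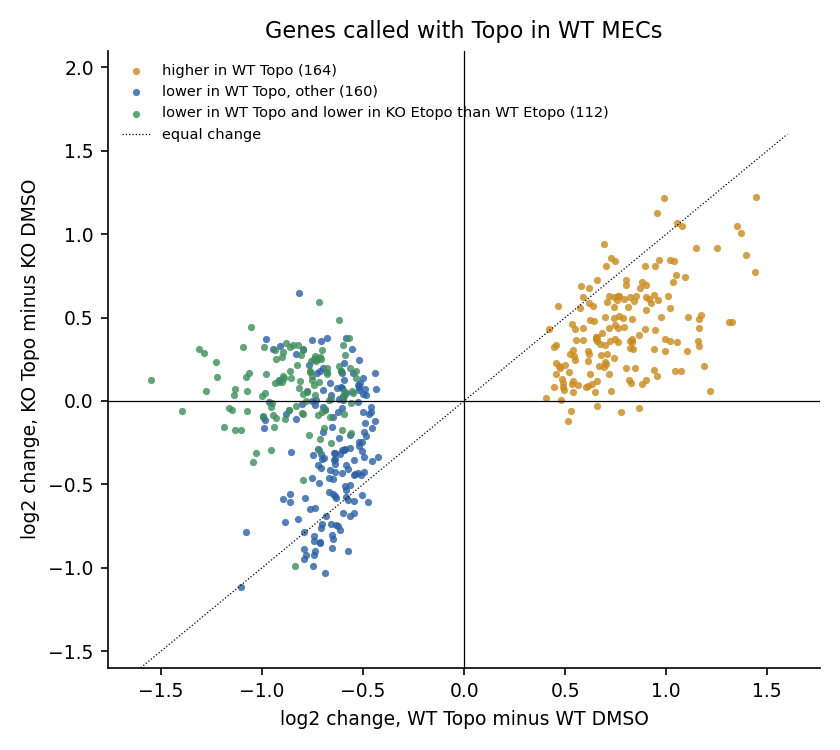
The 436 genes called with Topo in WT, by their log2 change in WT (horizontal axis) and in KO (vertical axis), with a dotted line of equal change. The 164 genes that rose in WT lie mostly above 0 in KO. Of those that fell in WT, the 112 that were also lower in KO Etopo than in WT Etopo scatter about 0 in KO with a median of 0.10. The other 160 reach down toward the line with a median of −0.30. The 112 genes are the dimmer set in KO.

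Several of the changes described above were of like size in WT. Tdp1 fell in both genotypes, with a change of −0.74 in KO and −0.66 in WT, and so did Tmprss11d, with −1.11 in KO and −1.10 in WT. Gnat3 rose by 1.05 in KO and by 1.35 in WT, Tas2r108 by 1.23 and by 1.45, and Adh1 by 1.06 and by 1.05. The mitosis list had a median of −0.78 in KO, with 19 that fell, and of −0.54 in WT, with 7 that fell, and no gene of it passed the test of the difference. Rrm2 had a value of −0.54 in WT, which did not pass the test (adjusted p = 0.24 by limma).

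Etopo alone was given to KO MECs on 2 arrays. Between KO Topo and KO Etopo 0 genes were called by limma (571 at an unadjusted p under 0.05, 234 called with array weights), and no gene's adjusted p was under 0.99. With 3 arrays against 2 this does not show that the drugs acted alike. The mitosis list means were 7.40, 7.81 and 7.91 in KO Topo and 7.67 and 7.84 in KO Etopo, so the groups overlapped. The tuft list means were 9.69, 9.51 and 9.72 in KO Topo, above the 9.12 and 9.38 of KO Etopo, and the cornified list means were 9.56, 9.13 and 9.28 in KO Topo, above 8.88 and 9.03. Against the shared KO DMSO arrays, KO Etopo called 0 genes as well (707 at an unadjusted p under 0.05). Its lists of dividing cells were nevertheless lower by about as much as with Topo. The mitosis median was −0.71 with Etopo and −0.78 with Topo, and that of DNA replication −0.38 and −0.37. Both KO Etopo means of the mitosis list lay below the KO DMSO range of 8.25 to 8.61.

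Both drugs together differed from Topo alone at 219 genes (1.11%), with 64 higher (0.324%) and 155 lower (0.785%) in KO EtopoTopo. These 2 arrays came from mice labelled 4 weeks old, so treatment and age cannot be told apart. KO EtopoTopo 1 had the narrowest spread of intensities of the series, 3.89, and without it 0 genes were called, while without KO EtopoTopo 2 there were 6447. Leaving out KO Topo 1, 2 or 3 gave 1210, 25 or 3. After quantile normalization 452 were called, of which 57.7% were lower, against 70.8% as deposited. The mitosis list did not move further, with a median of 0.04 and no call. Jun, an immediate early transcription factor, was lower in KO EtopoTopo (−1.41 ± 0.26, adjusted p = 0.0235 by limma), as was the keratin Krt17 (−1.58 ± 0.37, adjusted p = 0.0458 by limma), and the milk protein gene Csn1s2a was higher (1.46 ± 0.23, adjusted p = 0.0187 by limma).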

How the data were processed

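The authors deposited 1 linear intensity for each probe on each array. RMA and Affymetrix Power Tools are listed, with no version and no role, per the submitters' processing notes. The arrays' number, not a read depth, limits the precision. Intensities were turned to log2 with no pseudocount and no further normalization. Of 24922 probes, 21425 had 1 symbol in the platform annotation, 1399 had several and 2098 had none listed; each gene was read from its brightest probe by the mean of 22 arrays, for 19752 genes. limma 3.58.1 in R 4.3.3 fitted 1 mean for each of 8 groups over 22 arrays, with empirical Bayes moderation (14 residual and 7.22 prior degrees of freedom) and Benjamini-Hochberg adjustment over all genes, and was tested on simulated data. Genes were called at an adjusted p under 0.05.

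The text names at most 15 called genes at either end of the range of changes, every called member and the 4 members of lowest p in each of 36 gene lists, Aire and the topoisomerases, and up to 6 genes each way in the other contrasts; exceptions are marked. Members of a list named without a call are its values, not changes. Clones, predicted genes, small RNAs, Xist and Y-linked genes were counted only. Members, lists and tests were chosen with earlier results of these data known. Symbols of 3 lists were brought up to date after the data were read. Titles number the replicates, and same-numbered KO Topo and KO DMSO arrays deviated together (correlations of 0.41, 0.17 and 0.30). The replicate block treats them as pairs and the main fit does not. Pairing was not established. Deviations of 3 arrays from their mean sum to 0, so outlying replicates 1 in both groups also make the others deviate together. The labels name no shared batch, and KO Topo 2 correlated more with KO DMSO 3 (0.36) than with KO DMSO 2. Replicates of KO Topo correlated at 0.972 to 0.996 and of KO DMSO at 0.983 to 0.994. Alternatives tried were the 6 arrays alone, quantile normalization, genes above the median level, the mean of a gene's probes, an intensity trend, array weights, the replicate block and each replicate left out; quantile normalization, levels in KO Etopo and left-out arrays for the genes chosen on other arrays were added after the data were seen.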

Additional observations from a re-analysis of the deposited data

Results flagged for a closer look

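The Topo effect differed between genotypes, by the interaction test of limma, at 15 genes. Those named had differences, KO effect minus WT effect, of 1.499 for Psg27, 1.463 for Retnla, 1.418 for Cyp1a2, 1.342 for Nid1, 1.312 for Gsdmc2 and 1.261 for Car6. All of these but Car6 lay between 4.93 and 7.40 on the KO arrays. How far a low level in KO limits a fall there was not tested. The mean of the Aire-dependent antigen list lay higher in every KO Topo array (7.67 to 7.78) than in any KO DMSO array (7.41 to 7.52) and lower in every WT Topo array (9.17 to 9.30) than in any WT DMSO array (9.45 to 9.68), a difference of 0.5923 between the changes that was not tested as a list.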

How the results depend on the processing

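The count of 204 genes was 196 after quantile normalization, 157 among genes above the median level, 204 with the mean of a gene's probes and 219 with an intensity trend. It was 1368 with array weights, which did not converge, and 0 both in the 6 arrays alone and with the replicate block. The block was fitted only to the arrays of the comparison or, for the interaction, to those of its own groups. Leaving out 1 replicate gave 1 to 181 genes, and leaving out both replicates 1 gave 11. The direction of all 204 held in each of these, except that 126 of them were above the median level and tested there, all in the same direction. Leaving out or weighting arrays cannot reverse a direction where the groups do not overlap. The 6 arrays alone, the block, the trend and the choice by level leave the changes as they were. Only quantile normalization and the mean of a gene's probes could have reversed one. None of the 65 named called genes kept its call in all, and the cause was not tested. The 15 interaction genes became 27 after quantile normalization, 1 above the median level, 23 with a trend, 1168 with weights, 10 with the replicate block, and 0 to 19 without 1 replicate. KO Topo minus KO Etopo gave 0 under every setting but array weights, which gave 234. KO EtopoTopo minus KO Topo, 219 genes, gave 452 after quantile normalization, 303 above the median level, 253 with a trend, 0 with weights and 0 to 6447 without 1 replicate; the lone KO EtopoTopo array left then is assumed to vary like the other groups.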
